A study of Mus musculus with 57 samples.

Results

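The genes described here are 10 members of the calcium-signalling machinery of neurons, followed through the prefrontal cortex of young mice with or without a mutation of Shank2. They are 6 calmodulin-dependent kinase genes, Pnck, Camk1, Camk1g, Camk2a, Camk2b and Camk4, and 4 genes of neuronal calcium sensors, Hpca, Hpcal4, Vsnl1 and Ncs1. They were taken by name from a table of 51456 gene identifiers, as kinases and sensors of these families, and they were chosen on the earlier results for these genes in these libraries. All 10 were in the table and all 10 reached the mean normalized count of 10 that a gene needed to be tested, as did 16659 genes in all. The results of these contrasts were known when the genes were proposed. Their p-values, which come from a fit across all genes tested, therefore describe these libraries and are no independent evidence for the choice.

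The study covers 57 C57BL/6N mice of both sexes, whose prefrontal cortex was sequenced as RNA at postnatal day 25. Of these, 30 were heterozygous for Shank2 (HT), the gene of a postsynaptic scaffold protein, and 27 were wild type (WT). Dosing ran from postnatal day 3 to 24, by way of the maternal milk. Lithium is a mood stabilizer that inhibits glycogen synthase kinase 3 and inositol monophosphatase, and fluoxetine is an inhibitor of serotonin reuptake. The arms were HT lithium, HT fluoxetine and HT vehicle with 10 libraries each, and WT lithium with 9, WT fluoxetine with 10 and WT vehicle with 8. Each sex had 5 libraries in an arm, apart from 4 in 3 cases, the females of WT lithium and both sexes of WT vehicle. The labels do not describe the Shank2 allele and name no litter, so p-values measure the spread between these samples only. The drugs reached the pups through the mother, so a difference between a drug and vehicle and a difference between litters cannot be told apart here.

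Calcium entering a neuron binds calmodulin, and calcium-loaded calmodulin opens the kinases of this family. The enzymes of the type I group and Camk4 are switched on further by an upstream kinase, whereas the alpha and beta subunits of type II assemble into a holoenzyme that keeps its activity by autophosphorylation and is abundant at excitatory synapses. The neuronal calcium sensors are small EF-hand proteins, most of them with a lipid tail, that bind calcium themselves and then change channels, receptors or lipid kinases at membranes. In the forebrain these proteins carry the calcium signal of synaptic activity to receptors, the cytoskeleton and, through CREB, to transcription.

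Promoter windows from RefSeq on GRCm38.p6, each with 250 bases before an annotated start, were available for 7 of the 10 members. They were Camk1, Camk1g, Camk2b, Hpca, Hpcal4, Vsnl1 and Ncs1. Shown are those stretches outside every annotated exon for the 3 genes with a window that passed a test of a drug over both genotypes, Hpca, Ncs1 and Camk1, read in the direction of transcription. Capitals mark the GC box GGGCGG or its reverse complement CCGCCC, and the half-site of the cyclic AMP response element, TGACG or its reverse complement CGTCA. The core of TCF and LEF factors, CTTTGA or TCAAAG, was searched as well. The stretches are chr4:129121308-129121553 on the minus strand for Hpca, which lies inside the gene before one of its alternative starts, chr2:31245673-31245822 on the plus strand for Ncs1, and chr6:113343985-113344172 on the minus strand for Camk1.
Hpca: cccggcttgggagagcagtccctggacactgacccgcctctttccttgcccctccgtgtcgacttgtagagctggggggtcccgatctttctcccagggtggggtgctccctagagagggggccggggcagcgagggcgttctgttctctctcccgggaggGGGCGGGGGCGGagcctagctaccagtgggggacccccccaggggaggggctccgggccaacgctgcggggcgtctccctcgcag
Ncs1: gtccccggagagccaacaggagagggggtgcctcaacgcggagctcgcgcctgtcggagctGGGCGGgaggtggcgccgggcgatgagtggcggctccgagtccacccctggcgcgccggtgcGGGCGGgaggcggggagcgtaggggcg
Camk1: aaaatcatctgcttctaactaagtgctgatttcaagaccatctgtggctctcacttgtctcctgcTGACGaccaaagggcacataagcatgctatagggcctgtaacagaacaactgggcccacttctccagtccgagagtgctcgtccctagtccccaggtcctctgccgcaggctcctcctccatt
The stretches of Hpca and Ncs1 hold 2 GC boxes each, which are side by side in Hpca, and the stretch of Camk1 holds 1 TGACG. Among 32851 windows of 250 bases, 32.7% hold at least 1 GC box, 17.8% the half-site and 13.8% the TCF and LEF core. A single match in such a window is therefore not rare. Shares for 2 boxes, for boxes side by side or for shorter stretches were not computed. The marked stretches are matches of letters and were not tested as binding sites.

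The genes lie on several chromosomes in GRCm38 with GENCODE M21 annotation, and all are protein-coding. Pnck is X-linked (ENSMUSG00000002012, chromosome X, 73655994 to 73660117, minus strand). Hpca lies at 129111570 to 129122036 of chromosome 4 on the minus strand (ENSMUSG00000028785), and Hpcal4 on the plus strand of the same chromosome at 123183227 to 123194701. Ncs1 is on chromosome 2 (31245823 to 31295989, plus strand) and Camk1 on chromosome 6 (113334124 to 113343984, minus strand). Camk2a and Camk4 share chromosome 18, Camk1g is on chromosome 1, Camk2b on chromosome 11 and Vsnl1 on chromosome 12. Camk1 overlaps Ogg1 on the opposite strand, which had a mean normalized count of 103. The library kit marks strand, but how the authors' counting used strand is not known here, so the overlap's reads may have gone to either gene.

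Shank2 was measured first as a check of the labels. It had 3877 to 5006 normalized counts in HT libraries and 6762 to 11791 in WT libraries, with no overlap, and its log2 change in HT was -1.17 ± 0.04 over all treatments. Library totals of normalized counts ran from 30.4 to 33.2 M (M, mega), and 21509 to 23264 genes lay above 0 in a library. All 10 markers of cortical excitatory neurons were tested, with Slc17a7 at a mean of 58629. All 12 markers of striatal projection neurons were above the minimum too, and their summed level was 7267 to 17330 in HT lithium, 6968 to 22590 in HT fluoxetine, 7790 to 9386 in HT vehicle, 7039 to 15620 in WT lithium, 7070 to 27920 in WT fluoxetine and 7121 to 35040 in WT vehicle. None of the 12 was called in a comparison of a drug with vehicle. In other marker lists, lithium over both genotypes called 1 of 10 cortical excitatory genes higher, 2 of 6 oligodendrocyte precursor genes lower and 1 of 10 endothelial and mural genes in each direction, while all 10 olfactory bulb genes had a negative change with none called. Fluoxetine over both genotypes called 2 of 10 microglial genes lower and 1 each of the precursor, inhibitory neuron and endothelial lists. Of all genes tested, lithium over both genotypes called 7.16% higher and 6.14% lower. Fluoxetine over both genotypes called 4.75% of all genes, 3.07% of all being lower. The mean log2 deviation of the microglial markers was -0.18 in HT fluoxetine and 0.04 in HT vehicle, and 0.03 and 0.08 in WT. Its lowest values were -0.89 in HT fluoxetine male 3 and -0.52 in HT fluoxetine female 1. The part of these cell types in the drug results was not tested, beyond the fit with the striatal level. In bulk tissue, fewer cells of a type and less RNA per cell cannot be told apart. WT vehicle male 2 stood apart from the other libraries. Its median correlation with them was 0.968, the lowest of all, and it held the highest WT vehicle value of Pnck, Camk1, Hpca and Vsnl1 and the lowest of Camk2a, Camk4 and Shank2. For several results that rest on WT vehicle male 2, the value without it is given too. Median correlations were next lowest in HT fluoxetine male 3 (0.970) and WT vehicle female 1 (0.977). Summed olfactory bulb markers were highest in WT vehicle female 1 (20820) and WT fluoxetine male 2 (16800). HT lithium female 5 (13520) and HT fluoxetine female 4 (12300) followed. WT vehicle female 1 and HT lithium female 5 held the lowest Hpca, Hpcal4, Vsnl1 and Ncs1 of their arm. In the others only Vsnl1 was lowest among these genes.

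Per kilobase of the longest coding transcript, the members differed widely in level. Camk2a, the alpha subunit of the type II kinase, was highest with 23137 normalized counts per kilobase. Next came Hpcal4 with 8003, Vsnl1 with 7436, Camk2b with 7133 and Hpca with 5924. Ncs1 with 1846 and Camk1 with 1824 were nearly level by this length, and on it their order cannot be told from the spread between libraries. Pnck had 1021, Camk4 899 and Camk1g, a membrane-anchored type I kinase, 485 per kilobase. The order depends on the length used. Per kilobase of the median transcript length, Camk2a had 66315, Hpcal4 65768, Camk2b 15304 and Vsnl1 7857. By that length Ncs1 had 3336, Camk1 1830, Camk4 1321 and Pnck 1051. The arms differed little beside these differences between members. The highest arm mean was 1.44 times the lowest for Pnck, 1.29 times for Hpca and 1.21 times for Camk4, and between 1.07 and 1.12 times for the other 7.

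Pnck, a type I kinase also called CaMKI beta, fell under lithium in both genotypes, with the smallest p of all 16659 genes in each of them. Hpca, the gene of hippocalcin, a sensor that moves to membranes when calcium rises, was lower as well. Called means an adjusted p under 0.05 in limma, with Benjamini-Hochberg adjustment over all genes tested. By that rule lithium changed 2 of the 10 members in HT, both lower, where 0.888% of all genes were called and 0.702% were called lower. In WT it changed the same 2 members, again lower, where 8.53% of all genes were called and 3.08% lower. Over both genotypes together 4 members were called, 3 lower and 1 higher, against 13.3% of all genes, 6.14% lower and 7.16% higher. At an unadjusted p under 0.05 there were 4 of 10 in HT, 4 in WT and 5 over both, against 12.8, 23.8 and 27.9% of all genes. The median log2 change of the 10 members was -0.07 in HT and -0.01 in WT, beside 0.00 and -0.01 over all genes tested.

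Pnck had 1201 to 1736 normalized counts in HT lithium libraries with a median of 1351, against 1662 to 1913 with a median of 1815 in HT vehicle libraries. In 9 of the 10 HT lithium libraries it lay below every HT vehicle library, and only HT lithium female 4 reached into their range. No member was free of overlap between these arms, as 0.078% of all genes were. In WT lithium libraries it ran from 1096 to 1385 with a median of 1191, against 1528 to 1984 with a median of 1727 in WT vehicle libraries. The WT arms did not overlap, which held for 0.288% of all genes in this pair of arms. The log2 change under lithium was -0.39 ± 0.05 in HT (adjusted p 6.465e-05) and -0.49 ± 0.06 in WT (adjusted p 9.898e-07), where ± is the standard error of the fit. On the linear scale Pnck fell by 23.5% in HT and fell by 28.7% in WT. Over both genotypes it was -0.44 ± 0.04 (adjusted p 1.114e-10).

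Within each sex the change of Pnck was negative. In HT females the log2 change was -0.41 ± 0.08 and in WT females -0.43 ± 0.09, with adjusted p of 0.0369 and 0.0612 from limma. In HT males it was -0.36 ± 0.08 and in WT males -0.55 ± 0.08, with adjusted p of 0.192 and 0.00012. In each of these 4 comparisons Pnck had the smallest p of all genes tested, and the genes called were 0.006% of all in HT females, where Pnck was the single one, 0% in WT females and HT males, and 10.2% in WT males. The call in HT females was lost without any 1 of 6 libraries. The lithium effect did not differ detectably between the sexes, with a female minus male difference of -0.05 in HT (95% interval -0.27 to 0.17) and 0.11 in WT (-0.12 to 0.35). Leaving out any single library kept the call of Pnck in HT, where the log2 change then ran from -0.43 to -0.36, and in WT, where it ran from -0.52 to -0.46.

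**Figure D1:**
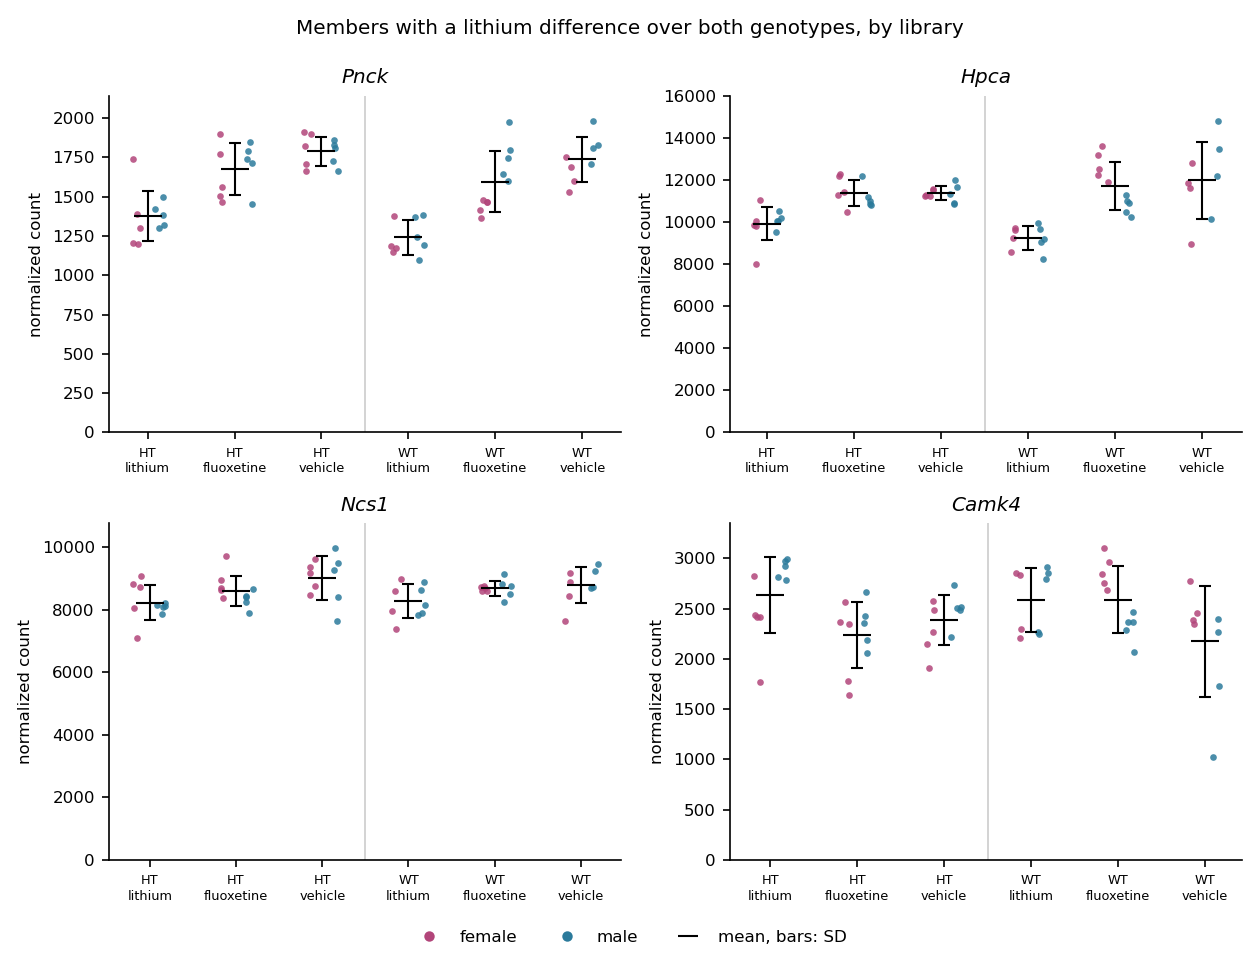
Normalized counts of Pnck, Hpca, Ncs1 and Camk4 in every library, by arm. Points are libraries, coloured by sex, and black lines are the arm mean with its SD. Pnck in WT lithium libraries, at most 1385, lies below all WT vehicle libraries, at least 1528.

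Hpca had 8037 to 11056 normalized counts in HT lithium libraries with a median of 10049, against 10876 to 12014 with a median of 11331 in HT vehicle libraries. In 9 of the 10 HT lithium libraries it lay below the lowest HT vehicle library. In WT lithium libraries it ran from 8255 to 9972 with a median of 9266, against 8946 to 14840 with a median of 12030 in WT vehicle libraries. These arms overlapped through 1 library, WT vehicle female 1 with 8946, and every WT lithium library lay below the WT vehicle median. All 9 WT lithium libraries also lay below the lowest WT fluoxetine library with 10235, a separation that 0.138% of all genes showed between those arms.

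The log2 change of Hpca under lithium was -0.20 ± 0.05 in HT (adjusted p 0.0357, limma) and -0.36 ± 0.06 in WT (adjusted p 0.000146), and -0.28 ± 0.04 over both genotypes (adjusted p 3.061e-06). In HT the call was lost without any 1 of 11 of the 20 libraries compared, 5 of them lithium and 6 vehicle libraries. Adjusted p then ran up to 0.124, with log2 changes of -0.20 to -0.17. The 0.124 and -0.17 came without HT lithium female 5, the library of its arm richest in olfactory bulb markers. In WT it held without each library, with -0.32 without WT vehicle male 2. With the striatal marker level of each library in the fit, Hpca was -0.21 in HT and -0.34 in WT, and Pnck -0.38 and -0.50, all called.

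Ncs1 encodes neuronal calcium sensor 1, a regulator of potassium channels and of a phosphatidylinositol kinase. It had 7084 to 9064 normalized counts in HT lithium libraries with a median of 8137, against 7648 to 9968 with a median of 9209.8 in HT vehicle libraries. In WT it had 7388 to 8993 under lithium with a median of 8158, against 7632 to 9464 with a median of 8802 under vehicle. The arms overlap widely, although all 10 HT lithium libraries lay below the HT vehicle median. The log2 change was -0.13 ± 0.04 in HT and -0.09 ± 0.04 in WT, with adjusted p of 0.119 and 0.22 from limma, and -0.11 ± 0.03 over both genotypes (adjusted p 0.0117). Without HT vehicle male 2, the HT change alone was called at -0.16 (adjusted p 0.0321), as was the WT change after quantile normalization at -0.14 (adjusted p 0.0351).

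Camk4, a nuclear kinase that phosphorylates CREB, was the member that rose. It had 1766 to 2993 normalized counts in HT lithium libraries with a median of 2799.6, against 1905 to 2739 with a median of 2488 in HT vehicle libraries. In WT it had 2212 to 2914 under lithium with a median of 2798, against 1020 to 2774 with a median of 2368 under vehicle. The arms overlap in both genotypes, and the lowest value of all is that of WT vehicle male 2. The log2 change over both genotypes was 0.21 ± 0.07 (adjusted p 0.0317, limma), made up of 0.14 ± 0.09 in HT and 0.29 ± 0.10 in WT (adjusted p 0.576 and 0.0604), neither called. With the striatal marker level in the fit, the WT change was called at 0.31 (adjusted p 0.0389), and it was called without any 1 of 6 libraries, with 0.37 without WT vehicle male 1 (adjusted p 0.0121). Without WT vehicle male 2 the WT change was 0.16 (adjusted p 0.264). Over both genotypes, the change was 0.15 without WT vehicle male 2 (adjusted p 0.0771), and 4 other libraries, HT lithium female 4, HT vehicle female 4, WT lithium female 3 and WT lithium female 4, also ended that call when left out. It was lost too without a filter on low values (adjusted p 0.0586) and with only the groups compared (adjusted p 0.0592).

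The other 6 members were not called under lithium. Camk2a had a log2 change of -0.04 ± 0.05 in HT and 0.06 ± 0.06 in WT, and Camk2b, whose product ties the holoenzyme to actin, -0.03 ± 0.03 and 0.00 ± 0.04. Their 95% intervals were -0.15 to 0.06 and -0.05 to 0.18 for Camk2a, and -0.10 to 0.04 and -0.08 to 0.08 for Camk2b, so a fall as large as that of Pnck lies outside them. Vsnl1, the gene of visinin-like protein 1, gave -0.08 ± 0.06 in HT and 0.01 ± 0.07 in WT, and Hpcal4, its close relative, -0.10 ± 0.05 and 0.03 ± 0.05. Camk1g gave -0.02 ± 0.09 in each genotype. Camk1 was -0.07 ± 0.05 in HT and -0.10 ± 0.05 in WT, and -0.09 ± 0.03 over both (adjusted p 0.0719, limma). This last value was called with the striatal term (-0.10, adjusted p 0.0296) and without any 1 of HT lithium female 1, WT vehicle female 4, WT vehicle male 1 and WT vehicle male 3, with adjusted p of 0.0213 to 0.0492. Without WT vehicle male 2 it was -0.05 (adjusted p 0.181), and the WT change was -0.04 (adjusted p 0.647).

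Camk2a had 99429 to 130877 normalized counts in HT lithium libraries with a median of 118224, against 109335 to 131949 with a median of 119953 in HT vehicle libraries. In WT it had 102863 to 121944 under lithium with a median of 113425, against 86348 to 130955 with a median of 107289 under vehicle. Camk2b had 24872 to 30252 in HT lithium libraries and 26460 to 29596 in WT lithium libraries, against 27043 to 31060 in HT vehicle and 25802 to 31903 in WT vehicle libraries. For both subunits the arms overlap, and WT vehicle spread more widely than WT lithium. For Camk2a, 4 WT vehicle libraries lay below every WT lithium library and 2 above every one. For Camk2b, 2 lay below and 3 above. In HT, 2 lithium libraries of Camk2a and 3 of Camk2b lay below every vehicle library.

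Hpcal4 encodes visinin-like protein 2. It had 30606 to 43015 normalized counts in HT lithium libraries with a median of 38367, against 38154 to 44999.8 with a median of 40008 in HT vehicle libraries, and 4 of the 10 lithium libraries lay below all vehicle libraries. In WT it had 36760 to 42571 under lithium, against 31356 to 43135 under vehicle, with no shift visible. Vsnl1 had 11461 to 14936 in HT lithium libraries and 12510 to 15960 in WT lithium libraries, against 12651 to 15197 in HT vehicle and 10680 to 20422 in WT vehicle libraries. Camk1g had 901 to 1659.7 in HT lithium and 1049 to 1484 in WT lithium libraries, against 1037 to 1415 in HT vehicle and 999 to 1451 in WT vehicle libraries. Camk1 had 2366 to 3033 in HT lithium and 2407 to 2887 in WT lithium libraries, against 2783 to 3003 in HT vehicle and 2414 to 3886 in WT vehicle libraries. In HT, 7 of the 10 lithium libraries lay below every vehicle library and 2 above every one.

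**Figure D2:**
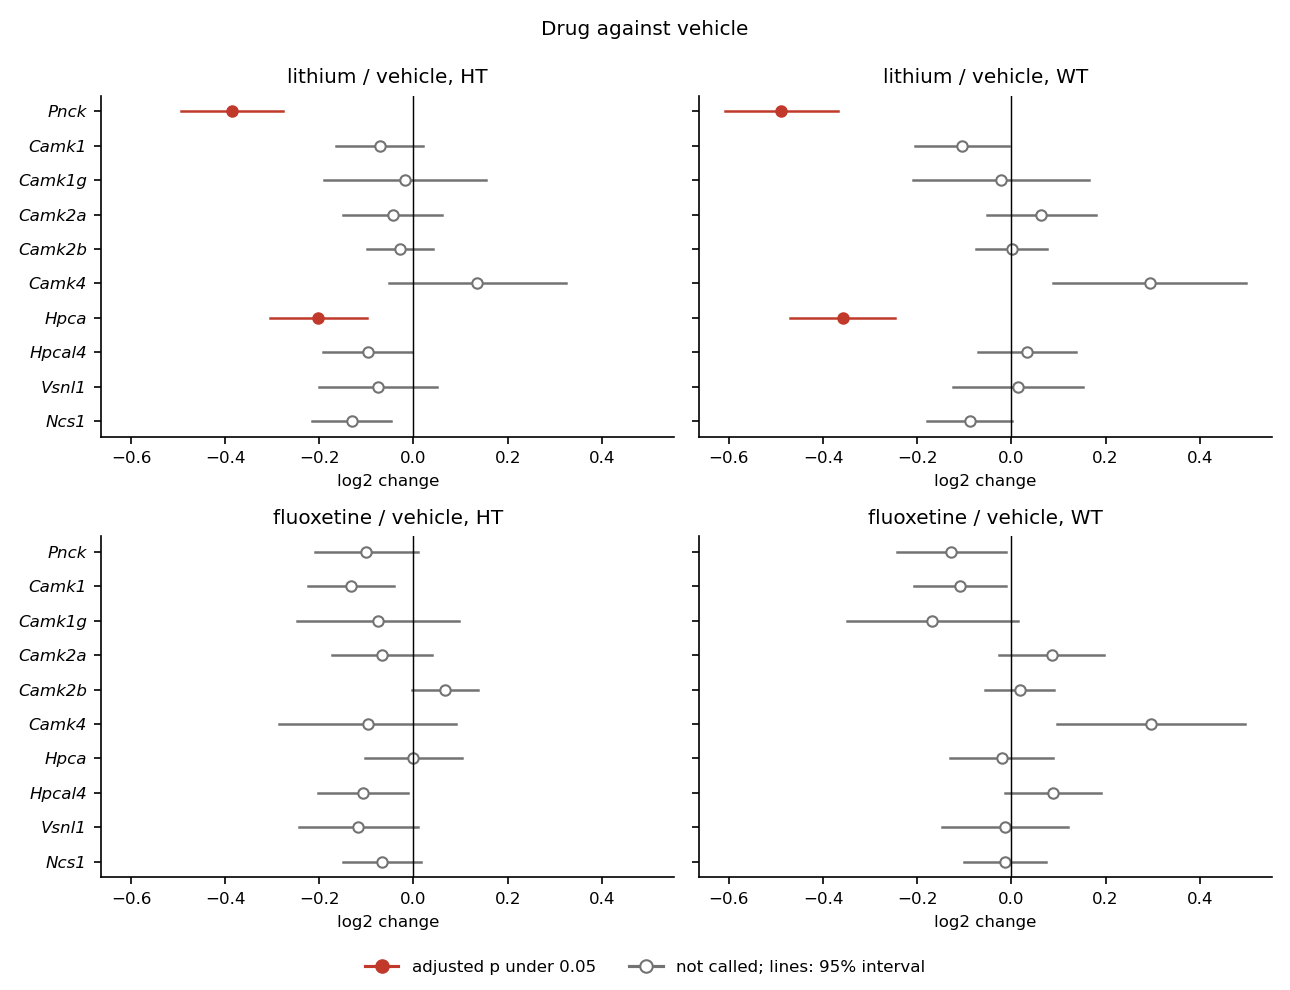
Log2 change of each member under lithium or fluoxetine against vehicle, in HT and in WT, with its 95% interval. Filled points passed an adjusted p of 0.05. Pnck and Hpca under lithium are the points called within a genotype, and both drugs are set against the same vehicle libraries.

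The trend of expression with transcript length moved with the drugs and is given here beside the calls. It is the Spearman correlation, over tested genes outside the lists, between a library's deviation from the other libraries and the median transcript length. In HT it averaged 0.0753 ± 0.0767 under lithium, 0.0243 ± 0.0879 under fluoxetine and -0.0507 ± 0.0575 under vehicle (SD, n = 10 each). In WT it averaged 0.0494 ± 0.0824 under lithium (n = 9), 0.0259 ± 0.054 under fluoxetine (n = 10) and -0.0844 ± 0.118 under vehicle (n = 8). WT vehicle male 2 had the lowest value, -0.333. With this trend in the fit, Pnck under lithium was -0.31 ± 0.06 in HT (adjusted p 0.041, limma), then the single gene called of all tested, and -0.41 ± 0.06 in WT (adjusted p 0.00063), among 62 genes. Hpca was -0.31 in WT (adjusted p 0.0114) and -0.15 in HT (adjusted p 0.321). Over both genotypes, Ncs1 was -0.05 (adjusted p 0.578), and Camk4 turned to -0.08 (adjusted p 0.473). The part of transcript length in these results beyond these values was not tested.

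**Figure D3:**
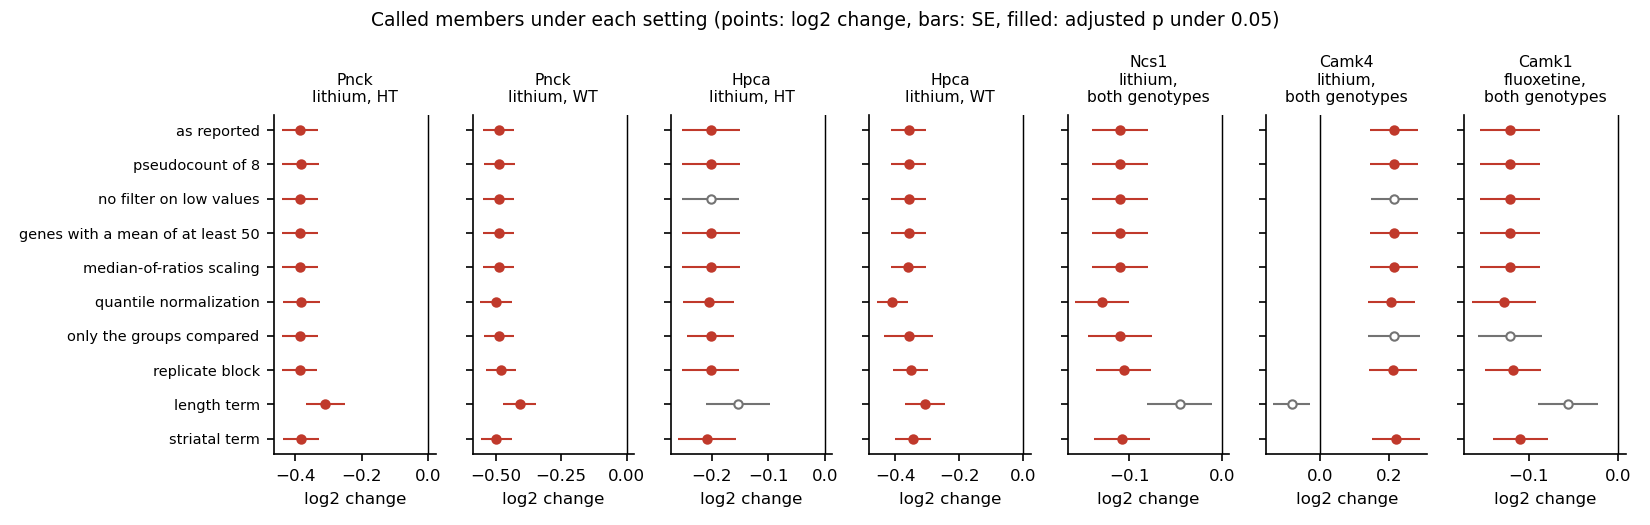
Log2 change and its standard error for each called member under every other way of processing, with filled points where the adjusted p is under 0.05. Pnck stays filled throughout, Camk4 under lithium moves to -0.08 with the length term, and each panel has its own horizontal scale.

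Under fluoxetine no member was called within a genotype. In HT 0 of 10 were called against 0.33% of all genes (limma), and 2 of 10 had an unadjusted p under 0.05 against 14.6% of all genes. In WT 0 of 10 were called against 0.84% of all genes, with 3 of 10 against 15.2% at an unadjusted p under 0.05. Camk1, a widely expressed type I kinase, had 2451 to 2749.9 normalized counts in HT fluoxetine libraries with a median of 2659, against 2783 to 3003 with a median of 2866 in HT vehicle libraries. All 10 HT fluoxetine libraries lay below all 10 HT vehicle libraries, a separation that 0.042% of all genes showed between these arms. The log2 change was nevertheless small, -0.13 ± 0.05 (adjusted p 0.16). This fit uses a spread per gene that is shared by all arms. For Camk1 the SD was 94 in HT fluoxetine and 66 in HT vehicle, against 189 in HT lithium and 137 to 447 in the WT arms. With only the HT fluoxetine and HT vehicle libraries in the fit, the same change was called (adjusted p 0.0426).

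In WT, Camk1 ran from 2412 to 3143 under fluoxetine with a median of 2625, against 2414 to 3886 with a median of 2812 under vehicle, and the arms overlap. The log2 change there was -0.11 ± 0.05, and -0.04 without WT vehicle male 2 (adjusted p 0.742). Over both genotypes Camk1 was -0.12 ± 0.03 (adjusted p 0.0241, limma), the 1 member called, against 4.75% of all genes and 3.07% called lower, and 2 of 10 had an unadjusted p under 0.05 against 20.2%. No member was free of overlap between the WT fluoxetine and WT vehicle arms, as 0.06% of all genes were. Without WT vehicle male 2, which holds the value of 3886, it was -0.09 (adjusted p 0.0505). With the length trend in the fit it was -0.06 (adjusted p 0.532).

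The arm mean of Pnck under fluoxetine lay between those of the lithium and the vehicle arms. It had 1451 to 1896 normalized counts in HT fluoxetine libraries and 1363 to 1972 in WT fluoxetine libraries. The WT fluoxetine libraries had 1363 to 1476 in females and 1599 to 1972 in males. Under vehicle, WT females had 1528 to 1749 and WT males 1705 to 1984. The log2 change was -0.10 ± 0.05 in HT and -0.13 ± 0.06 in WT, and -0.11 ± 0.04 over both genotypes (adjusted p 0.0827, limma). This last value was called without HT fluoxetine female 1, at -0.13 (adjusted p 0.0421). Without WT vehicle male 2 it was -0.10 (adjusted p 0.146). Lithium and fluoxetine are compared with the same vehicle libraries, so their effects are not independent of each other. Hpca was -0.00 ± 0.05 in HT and -0.02 ± 0.05 in WT under fluoxetine, beside its values under lithium above. Camk4 was -0.10 ± 0.09 in HT and 0.30 ± 0.10 in WT (adjusted p 0.68 and 0.125), and the WT value was 0.17 without WT vehicle male 2 (adjusted p 0.465). It was called without WT vehicle male 1, at 0.37 (adjusted p 0.0261), and without WT vehicle male 4, at 0.36 (adjusted p 0.0481).

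The remaining members gave small values under fluoxetine that did not pass the threshold. Camk2b was 0.07 ± 0.03 in HT and 0.02 ± 0.04 in WT. It had 28798 to 32022 normalized counts in HT fluoxetine libraries with a median of 30076, against 27043 to 31060 with a median of 28387 in HT vehicle libraries. All 10 fluoxetine libraries lay above that vehicle median, and the arms overlap. Hpcal4 was -0.11 ± 0.05 in HT and 0.09 ± 0.05 in WT. It had 32494 to 41755 in HT fluoxetine libraries with a median of 38028, against the HT vehicle range given above, and 6 of the 10 fluoxetine libraries lay below every HT vehicle library. In WT it had 37693 to 44045 under fluoxetine with a median of 42017, against 31356 to 43135 with a median of 39860 under vehicle.

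Vsnl1 was -0.12 ± 0.06 in HT and -0.01 ± 0.07 in WT, and Ncs1 -0.07 ± 0.04 and -0.01 ± 0.04. Camk2a was -0.07 ± 0.05 in HT and 0.09 ± 0.06 in WT, and Camk1g -0.08 ± 0.09 and -0.17 ± 0.09. Ncs1 had 7889 to 9714 normalized counts in HT fluoxetine and 8241 to 9151 in WT fluoxetine libraries, which lie within or near the vehicle ranges of their genotype. Camk1g had 903 to 1802 in HT fluoxetine libraries and 818 to 1385 in WT fluoxetine libraries, and 9 of the 10 WT fluoxetine libraries lay below the WT vehicle median of 1263.

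**Figure D4:**
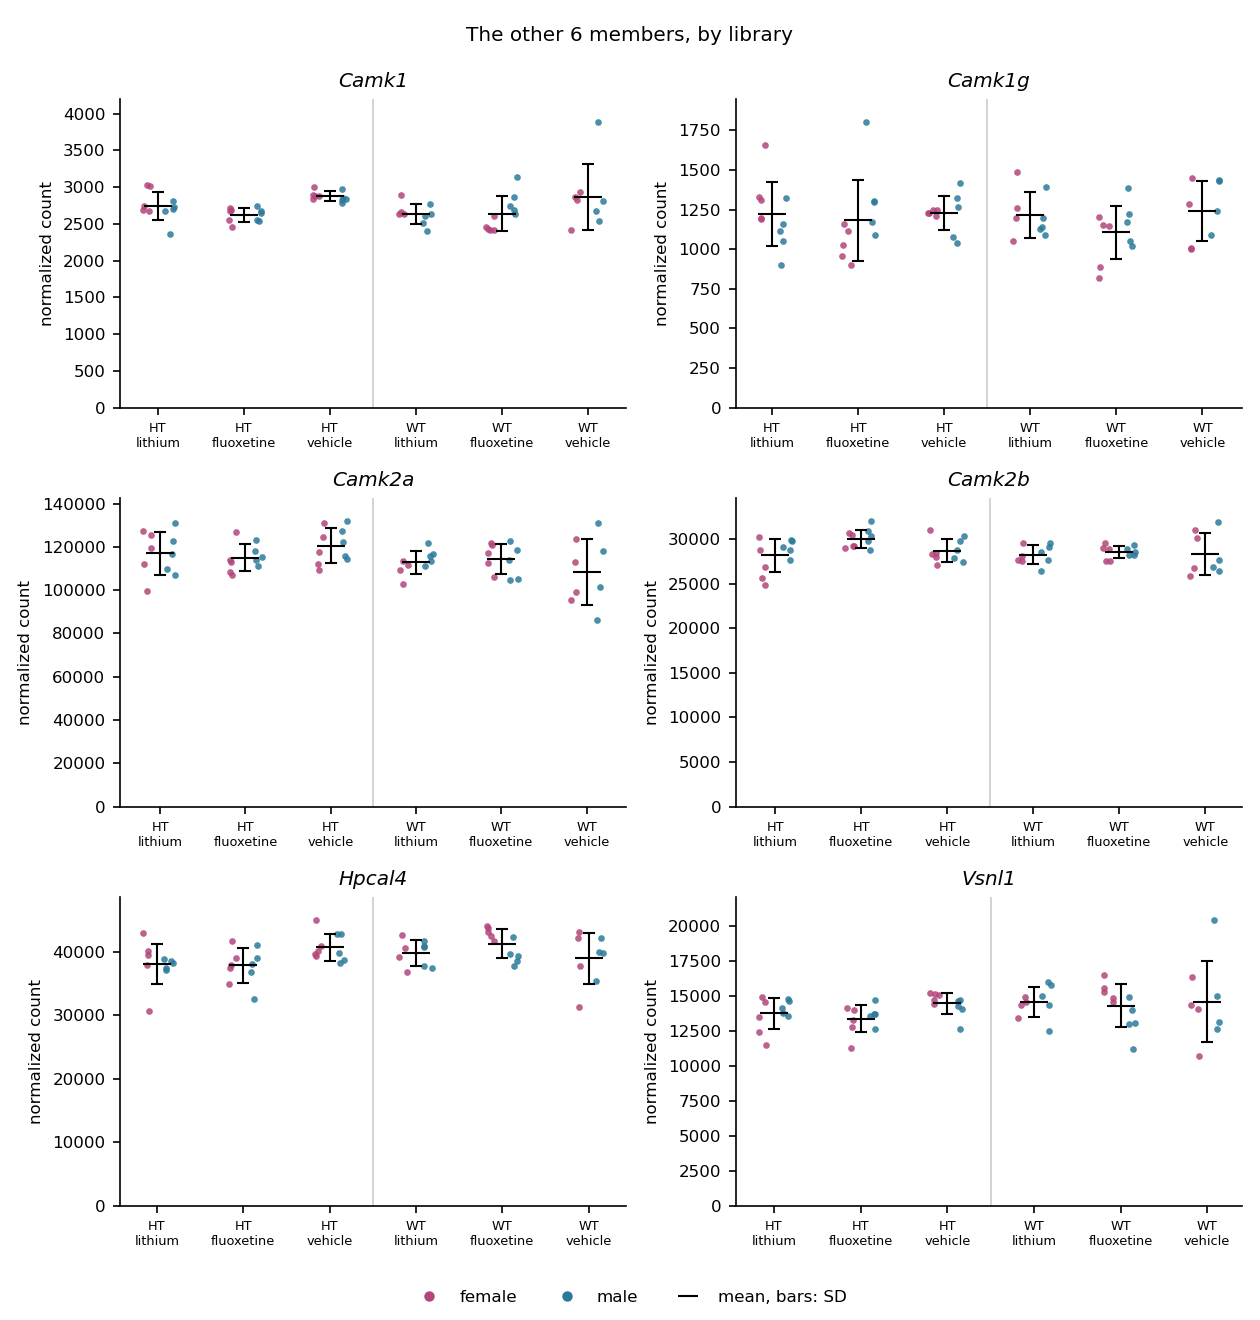
Normalized counts of Camk1, Camk1g, Camk2a, Camk2b, Hpcal4 and Vsnl1 in every library, by arm. Points are libraries, coloured by sex, and black lines are the arm mean with its SD. Camk1 in HT fluoxetine libraries, at most 2749.9, lies below all HT vehicle libraries, and WT vehicle male 2 is the high WT point of Camk1 at 3886 and of Vsnl1 at 20422.

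The genotype moved none of the members past the threshold. HT against WT gave 0 of 10 under vehicle, against 0.762% of all genes, 0 of 10 under fluoxetine against 0.222%, and 0 of 10 under lithium against 0.114% (limma). At an unadjusted p under 0.05 there were 1 of 10 under vehicle, 3 of 10 under fluoxetine and 1 of 10 under lithium, against 14.8, 10.5 and 7.75% of all genes. Over all treatments 0 of 10 were called against 3.74%, and 2 of 10 had an unadjusted p under 0.05 against 18.9%. These 2 were Pnck, 0.09 ± 0.03 (adjusted p 0.109), and Camk2a, 0.08 ± 0.03 (adjusted p 0.167). Without WT vehicle male 2, Pnck was 0.10 (adjusted p 0.0863) and Camk2a 0.06 (adjusted p 0.269).

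Camk2a gave the smallest p among the members under vehicle. It had 109335 to 131949 normalized counts in HT vehicle libraries with a median of 119953, against 86348 to 130955 with a median of 107289 in WT vehicle libraries. The arms overlap, and all 10 HT vehicle libraries lay above the WT vehicle median. The log2 change was 0.16 ± 0.06 (adjusted p 0.142, limma), and 0.11 without WT vehicle male 2. It was called after quantile normalization, at 0.22 (adjusted p 0.0155), and without WT vehicle male 4, at 0.21 (adjusted p 0.031). Under fluoxetine the 3 members with an unadjusted p under 0.05 were Hpcal4, lower in value at -0.13 ± 0.05, Camk4 at -0.21 ± 0.09 and Camk2b at 0.07 ± 0.03, with adjusted p of 0.297, 0.401 and 0.456. Hpcal4 had 32494 to 41755 normalized counts in HT fluoxetine libraries, against 37693 to 44045 in WT fluoxetine libraries, and these arms overlap. Under lithium Hpca was 0.10 ± 0.05, with an adjusted p of 0.683. For Pnck under lithium, HT libraries lay higher than WT libraries by 0.15 ± 0.06 (adjusted p 0.411), and all 10 were above the WT lithium median.

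The drug effects were set against each other between the genotypes in the same fit. For the HT minus WT difference of the lithium effect and of the fluoxetine effect, 0 of 10 members were called, as were 0% of all genes (limma), with 1 and 2 of 10 members at an unadjusted p under 0.05 against 7.31 and 7.71% of all genes. The lithium effect on Pnck differed by 0.10 between HT and WT (95% interval -0.06 to 0.26) and that on Hpca by 0.16 (0.00 to 0.31). Without WT vehicle male 2 these differences were 0.08 for Pnck and 0.12 for Hpca. The difference of the fluoxetine effect was -0.39 for Camk4 (-0.67 to -0.12) and -0.20 for Hpcal4 (-0.33 to -0.06), both with an adjusted p of 0.492. Without WT vehicle male 2 it was -0.26 for Camk4 and -0.17 for Hpcal4.

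**Figure D5:**
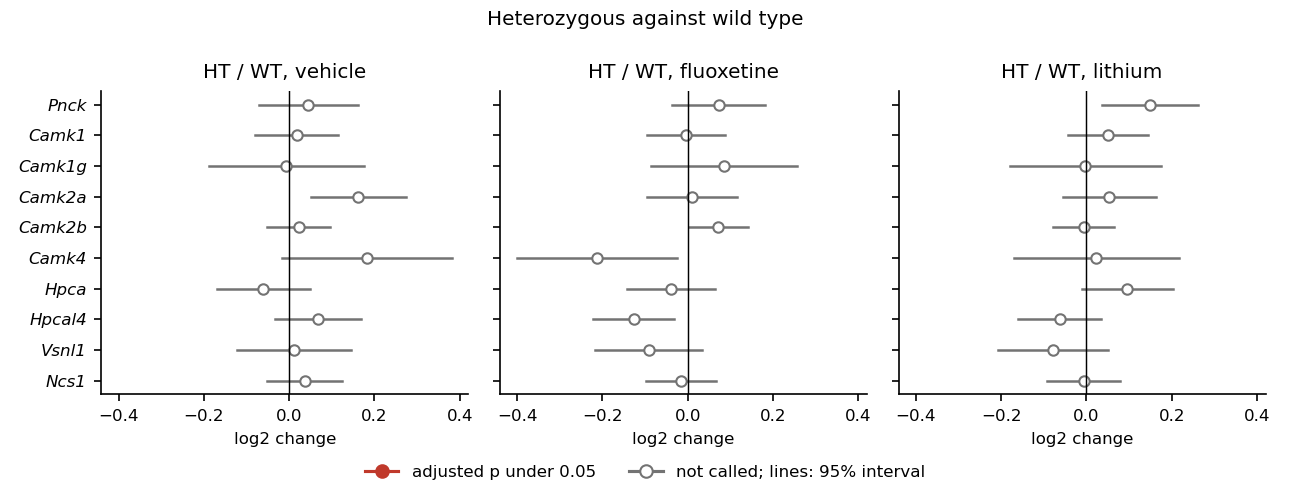
Log2 change of each member in HT against WT under vehicle, fluoxetine and lithium, with its 95% interval. All points are open, none passing an adjusted p of 0.05, and Camk2a under vehicle is at 0.16.

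Between the sexes no member was called over all arms, against 0.108% of all genes (limma), and 1 of 10 had an unadjusted p under 0.05 against 5.36%. That was the X-linked Pnck with a female minus male difference of -0.09 ± 0.03 (adjusted p 0.857). The fluoxetine effect on Hpca in WT differed between the sexes, female minus male by 0.40 ± 0.11 (adjusted p 0.0382, limma), in a comparison that called 2.53% of all genes. It was the 1 member called among the 5 sex differences fitted. WT fluoxetine females had 12257, 13622, 13179.5, 12545 and 11929 normalized counts, against 8946, 12806, 11876 and 11637 in WT vehicle females. WT fluoxetine males had 10901, 10489, 10992, 10235 and 11276, against 12184, 14840.2, 10157 and 13482 in WT vehicle males. The female fluoxetine libraries all lay above the male ones, while both vehicle groups spread widely. These fluoxetine groups were also free of overlap for Pnck and Camk1, lower in females, and for Camk4, higher in females. The share of all genes free of overlap between them was not computed. Tissue content also differed between the sexes of WT fluoxetine. Summed olfactory bulb markers were 1632 to 3097 in females and 7175 to 16800 in males. Summed striatal markers were 7828 to 27920 in females and 7070 to 8365 in males. The call was lost with the striatal level in the fit, and the part of tissue content was not tested further.

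Within each sex the fluoxetine change of Hpca in WT was 0.18 ± 0.08 in females and -0.22 ± 0.08 in males, neither called. The difference was 0.32 without WT vehicle male 2 (adjusted p 0.138) and 0.29 without WT vehicle female 1 (adjusted p 0.198), and it was lost without any of 6 other libraries of the WT arms. Camk4 was called in males, where HT against WT under vehicle was 0.50 ± 0.14 (adjusted p 0.0366) and lithium against vehicle in WT 0.56 ± 0.14 (adjusted p 0.00771). These male comparisons called 4.01 and 10.2% of all genes. Without WT vehicle male 2 the values were 0.24 (adjusted p 0.52) and 0.30 (adjusted p 0.204), and the first was also lost without any of HT vehicle males 2, 3, 4 and 5. Hpca under lithium in WT males was -0.45 ± 0.08 (adjusted p 0.000531), and -0.36 without that library (adjusted p 0.0213). The single values of Camk4 were 2222, 2739, 2516, 2506 and 2491 normalized counts in HT vehicle males and 2272, 2798, 2850, 2914 and 2249 in WT lithium males, against 2397, 1019.7, 1731 and 2270.3 in WT vehicle males. In both comparisons 2 WT vehicle males lay inside the range of the other group and 2 below it. In females the WT lithium change of Camk4 was 0.02 ± 0.15. Neither of the sex differences of Camk4 was called, with adjusted p of 0.249 and 0.614. That for HT against WT under vehicle was called without WT vehicle male 1, at -0.78 (adjusted p 0.0452, limma). The sex difference of Vsnl1 under fluoxetine in WT was called without WT vehicle female 2 (0.44, adjusted p 0.0466) or without WT vehicle male 3 (0.43, adjusted p 0.0383).

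Around the members, 57 other genes of the pathway were followed in 6 lists, of which 54 were tested. The lists held other calmodulin-dependent kinases, inhibitors and phosphatases of these kinases, calmodulins and proteins that bind them, other EF-hand sensors, calcineurin with its regulators, and the CREB arm. Under lithium in HT none of the 54 was called, against 0.888% of all genes. In WT 3 of the 54 were called, against 8.53% of all genes. They were Kcnip2 lower by 0.33 on the log2 scale (adjusted p 0.000497, limma), Camk2n2 lower at -0.24 (adjusted p 0.0411) and Ppp3cb higher at 0.13 (adjusted p 0.0234). Kcnip2 encodes an EF-hand partner of Kv4 potassium channels, Camk2n2 an inhibitor of the type II kinase and Ppp3cb a catalytic subunit of calcineurin. Leaving out single libraries ended the call of Camk2n2 for 10 of the 17 libraries compared, with -0.18 without WT vehicle male 2, and that of Ppp3cb for 3 of them, with 0.10 without WT vehicle female 1. With the length trend in the fit Camk2n2 was -0.08 (adjusted p 0.643) and Ppp3cb 0.10 (adjusted p 0.22), and with only the groups compared their adjusted p were 0.109 and 0.109.

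Over both genotypes lithium called 4 genes lower and 2 higher among the 54, against 6.14% of all genes lower and 7.16% higher. The 4 with the smallest p were Kcnip2 at -0.21 ± 0.04, Camk2n2 at -0.22 ± 0.05, Camkv, a kinase-like protein of vesicles without activity, at -0.10 ± 0.03, and Ppp3cb at 0.08 ± 0.02. With the length trend in the fit none of these was called, and Camk2n2 was -0.06 (adjusted p 0.659). By list, 2 of 10 other kinases were lower, as were 1 of 4 inhibitors and phosphatases and 1 of 10 other sensors. In the list of calmodulins and their partners 1 of 9 was higher, and in that of calcineurin 1 of 13. None of 8 genes of the CREB arm was called. Among the genes called, Camkk1, an upstream kinase, was lost without any 1 of 20 libraries, and Camta1, the gene called in the calmodulin list, without any 1 of 23. These genes were added after their values were seen.

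Under fluoxetine Camta1, a transcription factor that binds calmodulin, was higher in WT at 0.16 ± 0.04 (adjusted p 0.0367, limma) and over both genotypes at 0.16 ± 0.03 (adjusted p 0.000305). Eef2k, a calmodulin-dependent kinase that slows the elongation of translation, was higher over both at 0.21 ± 0.04 (adjusted p 0.00303). The call of Camta1 in WT was lost without any 1 of 8 libraries, with 0.14 without WT vehicle female 3, and with the length trend in the fit (adjusted p 0.415). Of the 54 pathway genes tested, Camta1 alone was called under fluoxetine in WT, against 0.84% of all genes. Over both genotypes Camta1 and Eef2k alone were called, against 4.75% of all genes. No pathway gene was called under fluoxetine in HT, against 0.33% of all genes.

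Between the genotypes, 3 of the 10 other EF-hand genes tested were lower in HT over all treatments, beside 2.12% of all genes called lower and 1.62% called higher. By smallest p the genes called over all 6 lists were Pcp4, a small protein that binds calmodulin, at -0.34 ± 0.04 (adjusted p 9.923e-07, limma), Rcan2, a regulator of calcineurin, at -0.18 ± 0.03 (adjusted p 6.265e-05), Kcnip3 at -0.15 ± 0.03 (adjusted p 0.0061) and Kcnip2 at -0.13 ± 0.03 (adjusted p 0.012). Kcnip2 and Kcnip3 are related partners of Kv4 channels. In the same comparison all 10 oligodendrocyte, all 10 astrocyte and all 12 striatal markers had a negative change, with 0, 3 and 0 called, as did 8 of 10 inhibitory neuron markers with 2 called lower. Their part in the result was not tested, beyond the fit with the striatal level. In all, 6 of the 54 were lower and 1 was higher. With the striatal level in the fit, 3 of these 7 were no longer called, Efhd2 of the EF-hand list at -0.13 (adjusted p 0.0581), Mylk at -0.18 (adjusted p 0.0594) and Cabin1 at 0.11 (adjusted p 0.0675), which are named after their values were seen. Under vehicle alone Kcnip2 was -0.25 ± 0.06 and Pcp4 -0.33 ± 0.08 (adjusted p 0.023 and 0.0337), and under lithium Pcp4 was -0.40 ± 0.08 (adjusted p 0.00766). Pcp4 under vehicle was -0.23 with the striatal marker level in the fit (adjusted p 0.0805) and -0.26 without WT vehicle male 2, and it was lost without any of 9 libraries. Under lithium its call was lost without WT lithium female 1, at -0.36 (adjusted p 0.0529), and that of Kcnip2 under vehicle without HT vehicle male 3, at -0.24 (adjusted p 0.0501). With only the groups compared both vehicle calls were lost, with adjusted p of 0.0879 for Kcnip2 and 0.281 for Pcp4, and that of Pcp4 also without a filter (adjusted p 0.0516).

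Over the 57 libraries the Pearson correlation of log2 values was highest between Hpcal4 and Ncs1, 0.71, and 0.81 within groups. Pnck and Hpca reached 0.56 over all libraries and 0.14 within groups. The lowest was -0.63 between Camk1 and Camk4, and -0.65 within groups. All these points share their libraries, with the length trend and the tissue content of each.

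Outside the members, the genes whose levels were most like them over the 57 libraries were Ctnnb1 for Pnck with a Pearson correlation of 0.84, followed by Ahi1 with 0.81. For Hpca they were Gabarapl1 with 0.73 and Sqstm1 with 0.72, and for Ncs1 Ccdc85c with 0.74 and Sowaha with 0.69. Camk4 was closest to Gabrb2 with 0.94, Vsnl1 to Pcmt1 with 0.87 and Ppp2r2b with 0.86, and for Camk2a Nptxr reached 0.82. Camk1 was closest to Jpt1 and Ppib, Camk1g to Mb21d2 and Strn4, Camk2b to Fbxo21 and Supt6 and Hpcal4 to D17Wsu92e and Atxn7l3, with correlations of 0.68 to 0.82. These correlations run over all arms and so include differences between the arms. For these genes, correlations within groups were not computed.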

How the data were processed

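Poly(A) RNA of 57 libraries was sequenced with a stranded mRNA kit, per the labels' protocols. The authors deposited 1 table of signal, normalized estimated counts by gene and library with no negative value. The submitters' processing notes name GRCm38, Salmon 0.11.2, DESeq2 1.19.11 and R 3.6.0. For annotation release, filters and strand setting, the sources used here state nothing. The values are not whole and whole reads could not be recovered, so the depth is unknown, a count test was not possible and limma took its place.

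Values were taken as log2(value + 1), which understates changes of low genes, and tested by limma 3.58.1 under R 4.3.3 (trend, robust). A mean of 10 or more admitted 16659 genes, in 1 fit of the 12 groups of genotype, drug and sex. Effects over both sexes weigh them equally. Benjamini-Hochberg adjustment covered all genes tested, with a threshold of 0.05. Errors given with ± are standard errors for log2 changes and SDs for means. No pair of libraries was identical. Alternatives were a pseudocount of 8, no filter, a minimum of 50, median-of-ratios scaling, quantile normalization, only the groups compared, a replicate block, a length term, a striatal term and each library left out. Same-numbered libraries did not pair, with a mean correlation of their deviations of -0.00772 over 300 pairs, so the fit has no block. Replicate numbers are those of the sample titles. For most WT vehicle females they differ from the numbers in the library names. The fits were tested on simulated data.

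The members and the pathway and marker lists were chosen with earlier results of these data known. Named are all members, per comparison up to 4 called pathway genes by smallest p, the 2 genes most like each member, and Shank2. For 2 members, 1 of these genes is not reported here.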

Additional observations from a re-analysis of the deposited data

Results flagged for a closer look

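The change of Hpca under fluoxetine in WT differed between the sexes by 0.398 on the log2 scale (female minus male), with an adjusted p of 0.0382 from limma. In WT fluoxetine the sexes also differed in olfactory bulb and striatal marker levels. The call was lost with the striatal level in the fit, and the part of these tissues was not tested further.

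Among 120 groups of a member, 4 held a library far above the others of its group, where chance alone flags about 1 group in 20. Camk1 had 2610.4 normalized counts in WT fluoxetine female 5, against 2412 to 2453 in the other 4 libraries. Camk1 had 2887 in WT lithium female 2, against 2628 to 2656 in the other 3. Hpca had 12193 in HT fluoxetine male 3, against 10828 to 11213 in the other 4, and the median correlation of this library with the others was 0.97. Hpcal4 had 44999.8 in HT vehicle female 3, against 39276 to 40879 in the other 4.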

How the results depend on the processing

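Pnck under lithium was called in HT, in WT and over both genotypes under all alternatives run, and Hpca in WT and over both. A pseudocount of 8, a minimum mean of 50, median-of-ratios scaling and the replicate block changed none of the 130 calls of a member in a comparison. With the replicate block Pnck was -0.39 in HT and -0.48 in WT, and 4 members were called under lithium over both genotypes. The replicate block left Camta1 under fluoxetine in WT at 0.15 (adjusted p 0.0734). The alternatives were applied to the pathway genes and the comparisons within a sex after the data had been seen.

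The count of members called changed as follows, and the cause was not tested. Without a filter it was 1 under lithium in HT (2 as reported), and Hpca had an adjusted p of 0.0678 there. With the length term it was 1 under lithium in HT, 2 under lithium over both genotypes (4 as reported), 0 under fluoxetine over both genotypes (1 as reported), 1 under fluoxetine in HT (0 as reported, Camk4 at -0.27) and 1 for HT against WT over all treatments (0 as reported, Pnck at 0.10). With that term Camk4 under lithium over both genotypes reversed to -0.0834. Under lithium over both genotypes it was 3 without a filter and with only the groups compared (Camk4 lost in both) and 5 with the striatal term, and under lithium in WT it was 3 with quantile normalization and with the striatal term (2 as reported). With only the groups compared it was 1 under fluoxetine in HT and 0 under fluoxetine over both genotypes. With quantile normalization it was 1 for HT against WT under vehicle and 1 over all treatments (0 as reported for both, Camk2a). The sex difference of Hpca gave 0 in place of 1 without a filter, with quantile normalization, with only the groups compared and with the striatal term.

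Counts over all genes moved by more than 1.5 times as well. Lithium in HT called 148 genes, against 79 without a filter and 1 with the length term, and lithium in WT called 1421, against 884 without a filter, 204 with only the groups compared and 62 with the length term. Lithium over both genotypes called 2216, against 150 with the length term. Fluoxetine called 55 genes in HT, against 23 without a filter, 93 at a minimum of 50 and 116 with the length term. In WT it called 140, against 41 without a filter, 2 with only the groups compared, 47 with the replicate block and 0 with the length term. Over both genotypes it called 791, against 469 without a filter and 75 with the length term. HT against WT called 127 under vehicle, against 64 without a filter, 8 with only the groups compared and 200 with the striatal term, 37 under fluoxetine, against 13 without a filter, and 19 under lithium, against 32 with only the groups compared. The sex difference of the fluoxetine effect in WT called 422, against 139 without a filter, 1 with only the groups compared and 28 with the striatal term.

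Leaving out each library in turn gave counts of 0 to 1 for HT against WT under vehicle, 1 to 3 for lithium in HT, 0 to 1 for fluoxetine in WT, 0 to 2 for fluoxetine over both genotypes and 0 to 2 for the sex differences. The depth behind a value is unknown, which limits what can be said of low genes. The members are far above the minimum.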
